A study of Homo sapiens with 24 samples.

Results

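The late cornified envelope 1 (LCE1) genes, LCE1A, LCE1B, LCE1C, LCE1D, LCE1E and LCE1F, are 6 closely related genes on chromosome 1, and all 6 were found among the 57736 Ensembl genes of the count table. The genes were taken by their names, but the family itself was chosen by its counts in these same 24 libraries, so the LCE1 values below are a description with their spread and carry no test. LCE proteins are small precursors, rich in glycine, serine and cysteine, that transglutaminases cross-link into the cornified envelope, the protein shell that replaces the membrane of keratinocytes as they die at the skin surface. Their genes lie in the epidermal differentiation complex, a stretch of chromosome 1 that also holds the genes of involucrin, loricrin, filaggrin, the small proline-rich (SPRR) proteins and many S100 proteins. LCE1 protein has also been described as an inhibitor of the arginine methyltransferase PRMT5.

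The RNA came from U87-T, a human glioblastoma line given an added TERT (telomerase) gene, and was read by QuantSeq, which sequences the 3′ ends of polyadenylated transcripts. In the DAXX series, DAXX-WT and DAXX_KO cells were kept as untreated controls or given etoposide, a topoisomerase II poison that leaves DNA double-strand breaks, and the ATRX series did the same with ATRX-WT and ATRX_KO cells, with 3 libraries in each of the 8 groups. DAXX is a chaperone that deposits the histone variant H3.3 and ATRX is its chromatin remodelling partner; each knockout was a single-cell clone that had survived CRISPR editing and long passage, so a property of the clone and an effect of the lost protein cannot be told apart. The control line of the study is U87-T with an empty Cas9 vector (sgCon), each series had its own WT libraries, and the dose and duration of etoposide for these libraries were not given in the sources used here. The study states in general that its experiments were done in biological replicates, and the labels do not say what was repeated for these libraries.

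The libraries held 6928950 to 13298557 counts, so that 3 counts in 1 library stood for 0.216 to 0.405 CPM (counts scaled to a common depth by library total and TMM factor). The DAXX_KO libraries carry a genotype tag that names ATRX, and their titles were followed. DAXX mRNA was at 4.60 to 6.57 CPM in the DAXX_KO controls against 32.7 to 35.2 CPM in the DAXX-WT controls, and with etoposide the gap was smaller, at 7.31 to 11.2 CPM against 20.9 to 22.7 CPM (log2 fold change -1.13 with etoposide and -2.53 without; interaction 1.40, SE 0.22, edgeR adjusted p = 0.000200). In controls ATRX mRNA in DAXX_KO (361 to 414 CPM) was above the WT range (217 to 243 CPM). ATRX mRNA was at 76.0 to 87.4 CPM in the ATRX_KO controls against 186 to 196 CPM in the ATRX-WT controls, and at 60.4 to 79.6 CPM against 170 to 180 CPM with etoposide. These are 3′ counts and need not include the edited bases, so they check the labels and not the protein. Of 10 glioma and mesenchymal markers, VIM held 10656 to 76208 and CD44 2622 to 13582 counts in every library, while GFAP, the astrocyte filament, was near 0 (0 to 6 counts). Of the markers that define keratinocytes, the natural site of LCE1, KRT5 (0 to 2 counts), KRT14 (0 to 5), KRT1 (0 to 1) and TP63 (0 to 3) were at or near 0 in all 24 libraries. Of the whole list of 20 keratinocyte genes, 9 never passed 5 counts in a library and 7 were counted in every library, among them KRT10 (1141 to 2824 counts), KRT15 (60 to 280), KLF4 (24 to 103), GRHL1 (11 to 72) and DSG3 (4 to 28).

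The 6 genes span 52958 bases (GRCh37, chr1:152747616-152800573) in the order LCE1F, LCE1E, LCE1D, LCE1C, LCE1B and LCE1A, with no other annotated gene between them. LCE1C (chr1:152777308-152779127) is read from the minus strand and the other 5 from the plus strand, and its nearest neighbours are LCE1D, 6650 bases away, and LCE1B, 5319 bases away. Gaps between adjacent members ran from 5319 to 14364 bases, and coding identity between members from 85.9% (LCE1A and LCE1D) to 96.1% (LCE1B and LCE1C). Because reads of 75 bases from near-identical genes can be divided between them, the last 500 transcript bases were compared. By exact match, LCE1B and LCE1C shared 6.34% of their 75-base windows there with each other, and LCE1D shared 2.33% with LCE1A and LCE1E. LCE1A, LCE1E and LCE1F shared none, so most windows at each 3′ end occurred exactly in only 1 member. Windows that differ at a few bases were not counted as shared, and how reads with mismatches were divided was not tested. LCE1D is annotated with only 42 bases after its stop codon, against 290 to 770 for the others, and the next AATAAA, the usual polyadenylation signal, lies 200 bases beyond its annotated end. Reads from a longer LCE1D transcript may not be counted, so its counts below bear only on the annotated gene.

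The 150 bases before the annotated start (RefSeq, GRCh38.p14, entries for 5 of the 6 genes) are shown because the 3 expressed genes with an entry and LCE1D have similar upstream sequences while their counts differ widely. Capitals mark ATAAAA.
LCE1C: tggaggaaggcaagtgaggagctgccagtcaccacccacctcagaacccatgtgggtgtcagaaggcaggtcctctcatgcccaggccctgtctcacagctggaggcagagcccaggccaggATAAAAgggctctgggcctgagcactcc
LCE1D: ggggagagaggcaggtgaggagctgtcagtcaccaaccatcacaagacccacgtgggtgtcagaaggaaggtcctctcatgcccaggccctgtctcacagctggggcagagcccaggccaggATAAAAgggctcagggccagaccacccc
LCE1E: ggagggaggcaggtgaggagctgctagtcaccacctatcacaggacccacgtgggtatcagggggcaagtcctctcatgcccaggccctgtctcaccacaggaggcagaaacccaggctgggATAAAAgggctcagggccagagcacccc
LCE1F: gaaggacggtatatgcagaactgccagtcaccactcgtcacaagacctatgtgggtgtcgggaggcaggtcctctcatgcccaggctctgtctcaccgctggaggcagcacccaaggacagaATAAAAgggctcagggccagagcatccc
LCE1A: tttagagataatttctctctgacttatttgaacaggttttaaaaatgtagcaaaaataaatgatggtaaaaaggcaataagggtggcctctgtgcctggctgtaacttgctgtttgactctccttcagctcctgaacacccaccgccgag
The positions are chr1:152806652-152806801 on the minus strand for LCE1C and, on the plus strand, chr1:152796571-152796720 for LCE1D, chr1:152786107-152786256 for LCE1E, chr1:152774990-152775139 for LCE1F and chr1:152827323-152827472 for LCE1A. LCE1C, LCE1D, LCE1E and LCE1F were 79.3% to 88.1% identical over these bases and each held ATAAAA starting 28 bases before the start, a motif that 1.97% of 35116 promoters held in their last 40 bases on the gene's strand. The LCE1A stretch was 39.3% to 45.6% identical to the other 4 and lacked ATAAAA in its last 40 bases. TATAAA, searched on both strands and able to overlap ATAAAA, was in the promoter windows of LCE1A and LCE1E, and in 11.5% of all promoters. These matches are letters in a window of 300 bases; binding was not analysed here.

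Without etoposide the LCE1 genes were almost silent. Over the 12 control libraries LCE1B held 0 to 3 counts, LCE1C 0 to 2, LCE1E 0 to 4 and LCE1F 0 to 2, and LCE1A and LCE1D held none. With etoposide LCE1B held 132 to 562 counts, LCE1C 25 to 1053, LCE1E 41 to 481 and LCE1F 23 to 326, so for each of these 4 genes every treated library lay above every control library. LCE1A reached 1 count in 4 of the 12 treated libraries, and LCE1D had 0 counts in all 24. For a group of 3 libraries a count of 0 allows a level of up to 0.0781 to 0.126 CPM (3 counts over the group, counting error only). LCE1D was thus not detectable at a level above that, nor was LCE1A in the groups where it had no count. With etoposide LCE1A held 1 count in DAXX-WT, 1 in DAXX_KO and 2 in ATRX_KO, where this limit does not apply. Fewer responding cells and less RNA per cell cannot be told apart in such bulk libraries.

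**Figure D1:**
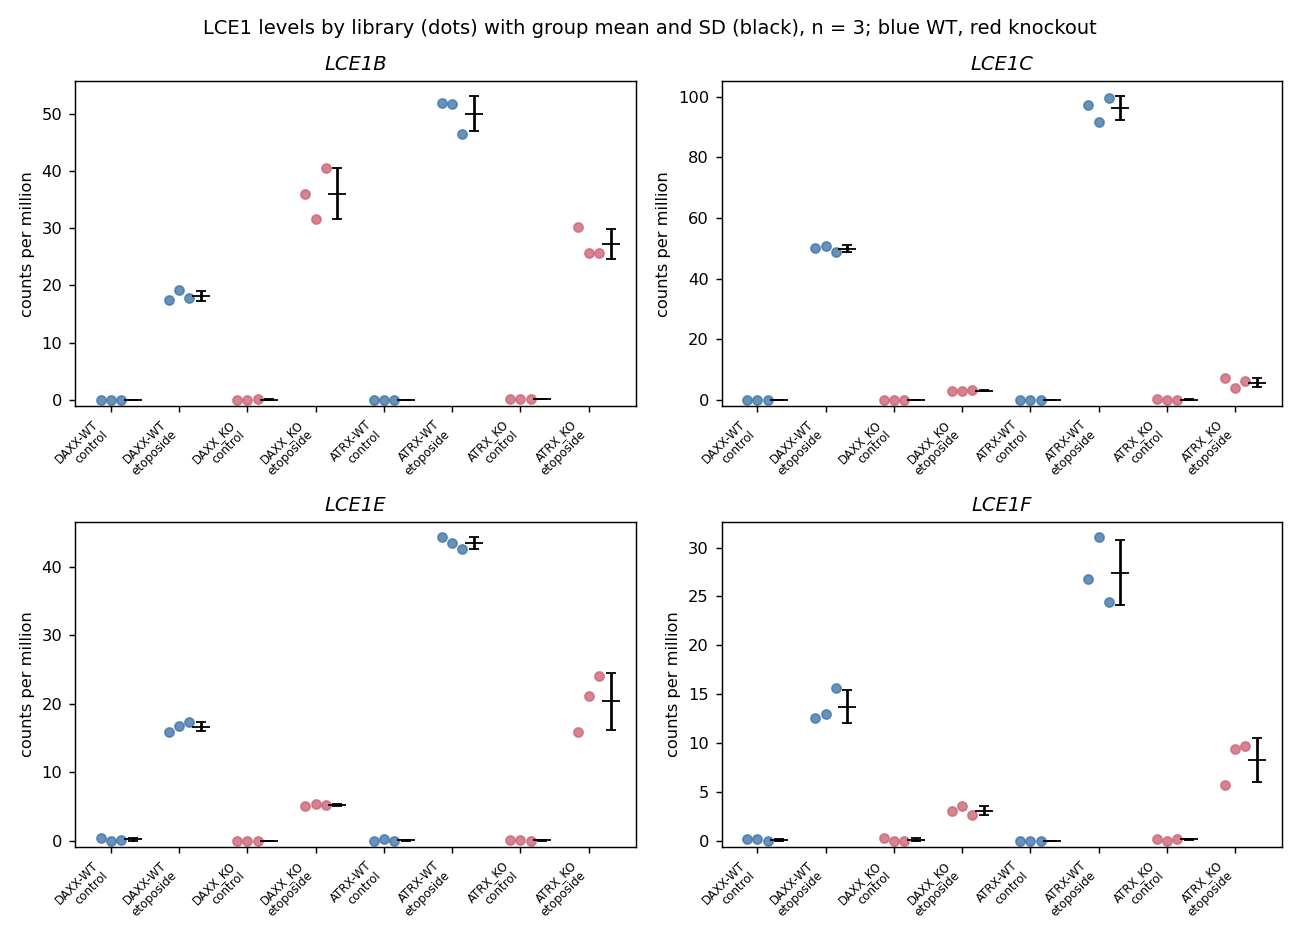
Level of LCE1B, LCE1C, LCE1E and LCE1F in CPM (linear axis, own scale in each panel) in the 8 groups; dots are the 3 libraries of a group, blue for WT and red for knockout, and the black mark is the mean with its SD. Control libraries sit at or near 0; with etoposide LCE1C falls from about 49.9 to 3.07 CPM between DAXX-WT and DAXX_KO, while LCE1B stands higher in DAXX_KO than in DAXX-WT.

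LCE1C was the most counted member in WT cells and the one with the widest gap between WT and knockout. With etoposide it stood at 50.3, 50.8 and 48.7 CPM in the DAXX-WT libraries and at 3.05, 2.90 and 3.25 CPM in DAXX_KO. In the ATRX series it stood at 97.2, 91.8 and 99.6 CPM in WT and at 7.11, 3.97 and 6.10 CPM in ATRX_KO. The lowest WT library was thus far above the highest knockout library in both series. DAXX_KO reached 6.14% of the WT mean and ATRX_KO 5.95%, log2 fold changes of -4.02 (SE 0.15) and -4.08 (SE 0.17). The difference between these estimates was 0.04 (SE 0.26), smaller than its error. Against controls with no count, the level with etoposide was at least 454-fold higher in DAXX-WT and at least 1170-fold higher in ATRX-WT. In the knockouts LCE1C still stood above its controls, by 73.5-fold in DAXX_KO (82 counts against 1, 95% counting interval 12.8 to 2937) and by 67.7-fold in ATRX_KO (216 counts against 3, interval 22.9 to 331).

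LCE1B, the neighbour that shares the most sequence with LCE1C, behaved differently. With etoposide its level was 17.5, 19.1 and 17.8 CPM in DAXX-WT and 36.0, 31.6 and 40.6 CPM in DAXX_KO, with all 3 knockout libraries above all 3 WT libraries. In the ATRX series the order was the opposite, with 51.9, 51.7 and 46.5 CPM in WT and 30.2, 25.6 and 25.7 CPM in ATRX_KO. The log2 fold change was 0.99 (SE 0.13) for DAXX_KO and -0.88 (SE 0.11) for ATRX_KO, so that the knockout effects differed by 1.85 (SE 0.17). LCE1B was the only one of the 4 expressed members whose direction differed between the series. Against controls with no count its level was at least 165-fold higher in DAXX-WT and at least 610-fold higher in ATRX-WT. The ratio to the controls was 862 in DAXX_KO (962 counts against 1, counting interval 154 to 34081) and 162 in ATRX_KO (1037 counts against 6, interval 74.4 to 444).

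LCE1E and LCE1F were lower in both knockouts, but by less than LCE1C. LCE1E stood at 15.96, 16.7 and 17.3 CPM in DAXX-WT and 4.998, 5.38 and 5.27 CPM in DAXX_KO with etoposide. In the ATRX series LCE1E stood at 44.4, 43.5 and 42.6 CPM in WT and 15.8, 21.2 and 24.1 CPM in ATRX_KO. WT and knockout libraries did not overlap, and the log2 fold changes were -1.67 (SE 0.21) for DAXX_KO and -1.09 (SE 0.16) for ATRX_KO. Treated against control, LCE1E was 90.8-fold higher in DAXX-WT (395 counts against 5, counting interval 38.6 to 281) and at least 41.8-fold higher in DAXX_KO. In the ATRX series the ratio was 794 in WT (1362 counts against 2, interval 219 to 6566) and 372 in ATRX_KO (792 against 2, interval 103 to 3079).

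LCE1F stood at 12.6, 12.9 and 15.7 CPM in DAXX-WT and 3.05, 3.52 and 2.58 CPM in DAXX_KO with etoposide. In the ATRX series it stood at 26.8, 31.1 and 24.5 CPM in WT and 5.69, 9.38 and 9.71 CPM in ATRX_KO. Again no knockout library reached the WT range, with log2 fold changes of -2.16 (SE 0.26) and -1.72 (SE 0.20). ATRX_KO replicate 1 was the lowest of its group for both LCE1E and LCE1F and the highest for LCE1B and LCE1C. Treated against control, the ratio for LCE1F was 124 in DAXX-WT (324 counts against 3, counting interval 42.1 to 605), and in ATRX-WT the level was at least 334-fold higher. In the knockouts the ratio was 36.7 for DAXX_KO (82 counts against 2, interval 9.85 to 308) and 75.9 for ATRX_KO (323 against 4, interval 29.4 to 280).

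The 4 members that passed the filter on low counts did so through the treated libraries, and LCE1A and LCE1D did not pass. With etoposide 4 of these 4 were called higher in WT cells of both series at an FDR of 0.05, where 30.1% (DAXX series) and 31.7% (ATRX series) of all genes tested were called higher; in the knockouts it was also 4 of 4, beside 27.1% and 24.3% of all genes. In DAXX_KO against DAXX-WT with etoposide 1 of 4 was called higher and 3 lower, beside 27.8% and 25.3% of all genes, and in ATRX_KO against ATRX-WT none was called higher and 4 lower, beside 23.0% and 22.9%. Since the family was chosen with these contrasts known, nothing is read from these counts. The median log2 fold change of all genes in the last 2 comparisons was 0.01 in each series.

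**Figure D2:**
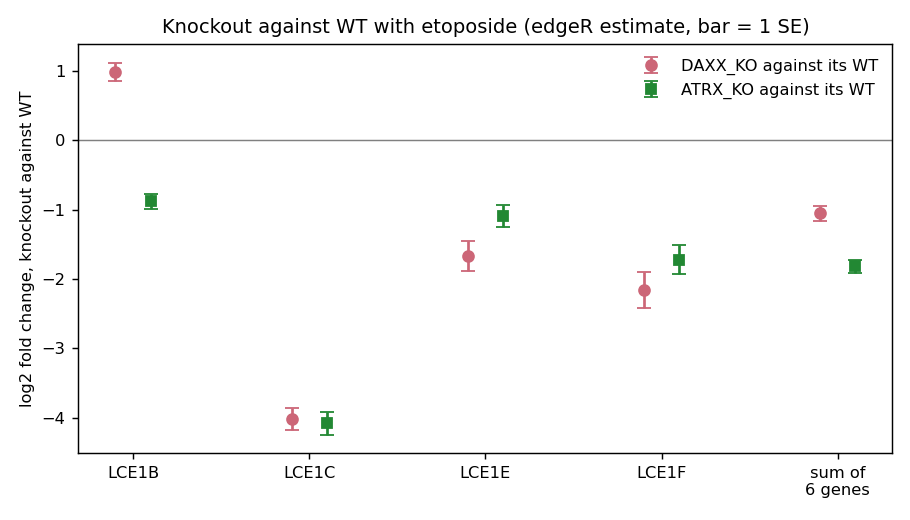
Log2 fold change of knockout against WT cells with etoposide for LCE1B, LCE1C, LCE1E, LCE1F and the sum of the 6 genes, as edgeR estimates with bars of 1 SE (circles, DAXX_KO; squares, ATRX_KO; 3 libraries a group). LCE1C lies near -4 in both series, and LCE1B lies above 0 in DAXX_KO (0.99) and below 0 in ATRX_KO (-0.88).

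Summed over the 6 genes, the level with etoposide was 96.2, 99.8 and 99.5 CPM in DAXX-WT and 47.1, 43.4 and 51.8 CPM in DAXX_KO. It was 220, 218 and 213 CPM in ATRX-WT and 58.8, 60.2 and 65.7 CPM in ATRX_KO. The sum was thus at 48.1% of WT in DAXX_KO (log2 fold change -1.06, SE 0.11) and at 28.4% in ATRX_KO (-1.82, SE 0.09), a difference between the knockout effects of 0.74 (SE 0.14). The order of the 8 groups by summed level was ATRX-WT, DAXX-WT, ATRX_KO and DAXX_KO with etoposide, none of which overlapped the next, followed by the 4 control groups. LCE1C and LCE1F followed this order too. For LCE1B, DAXX_KO and ATRX_KO stood above DAXX-WT, and for LCE1E the ATRX_KO and DAXX-WT libraries overlapped.

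The WT cells of the series differed in level. With etoposide the summed LCE1 level was 2.14 times as high in ATRX-WT as in DAXX-WT (log2 difference 1.10, SE 0.10), with LCE1B at 1.42 (SE 0.12), LCE1E at 1.34 (SE 0.17), LCE1F at 0.96 (SE 0.21) and LCE1C at 0.90 (SE 0.12). Series and batch cannot be told apart in these libraries, so each knockout was set against the WT of its own series.

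Among the controls, knockout and WT libraries did not overlap in the ATRX series. The 3 ATRX_KO controls held 6, 4 and 5 LCE1 counts and the ATRX-WT controls 0, 2 and 0, which is 0.334 to 0.521 CPM against 0 to 0.170 CPM. The ratio was 7.59 (15 counts against 2, 95% counting interval 1.76 to 68.4). LCE1B gave 6 of these 15 counts, at 1, 2 and 3 per ATRX_KO library, and none in ATRX-WT. In the DAXX series 4 counts in DAXX_KO stood against 8 in DAXX-WT (ratio 0.568, interval 0.125 to 2.12), and the libraries overlapped. A difference between the responses of WT and knockout cells was fitted for single members but is not given, since with controls at or near 0 its size depends on the prior count of the fit.

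The make-up of the LCE1 counts differed between WT and knockout cells. With etoposide LCE1C gave 50.7% ± 1.63 (SD, n = 3) of the LCE1 counts in DAXX-WT and 44.3% ± 2.32 in ATRX-WT, and LCE1B gave 18.4% ± 0.678 and 23.0% ± 1.05. In DAXX_KO LCE1B gave 75.9% ± 2.82 and LCE1C 6.48% ± 0.203. In ATRX_KO LCE1B gave 44.3% ± 6.30, LCE1E 32.9% ± 5.27 and LCE1C 9.32% ± 2.75. LCE1F gave 11.5% to 14.3% in ATRX-WT and 9.67% to 15.6% in ATRX_KO, which overlap, and 13.9% ± 1.58 in DAXX-WT against 6.52% ± 1.57 in DAXX_KO. These are shares of counts at 3′ ends, without a length correction, and the depth behind them was 386 to 2386 LCE1 counts a library.

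**Figure D3:**
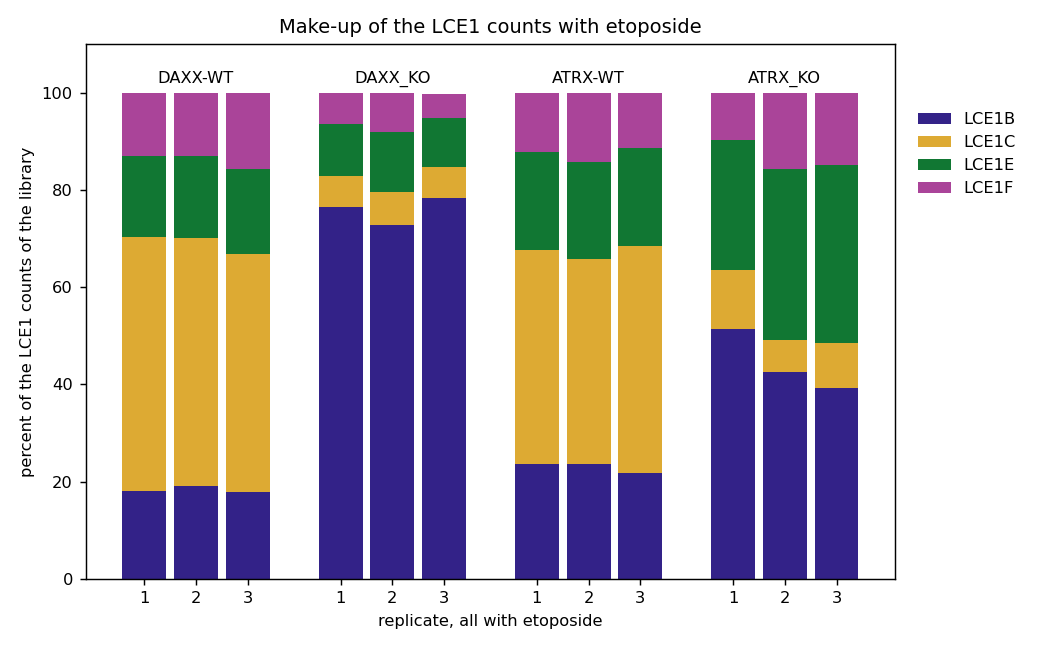
Percent of the LCE1 counts of each library that fell on LCE1B, LCE1C, LCE1E and LCE1F with etoposide; each bar is 1 library, 3 a group, and the bars start at 0. LCE1C makes up about 50.7% in DAXX-WT and 44.3% in ATRX-WT but 6.48% and 9.32% in the knockouts, where LCE1B is the largest part.

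The rest of the LCE family stayed at low counts, but its summed level too was higher with etoposide in WT cells of both series. Of 12 other LCE genes (LCE2 to LCE6) none passed the filter in either series, and the largest count in any library was 12, for LCE3D. Their summed level was 0.198 to 0.457 CPM in DAXX-WT controls and 1.76 to 2.39 CPM with etoposide, and 0.155 to 0.254 CPM and 1.02 to 1.72 CPM in ATRX-WT. With etoposide it was lower in DAXX_KO, at 0.224 to 0.488 CPM. In ATRX_KO it was 0.533 to 1.05 CPM, which overlaps ATRX-WT. LCE3D held 19 counts in DAXX-WT with etoposide and 0 in DAXX_KO, and 16 in ATRX-WT and 8 in ATRX_KO. LCE5A held 0 counts in all control groups and 9 to 18 counts per treated group, and LCE3B and LCE3C held none in 24 libraries. The summed level of these 12 genes with etoposide was thus below that of LCE1F alone.

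Of 42 other genes of the epidermal differentiation complex, 14 (DAXX series) and 15 (ATRX series) were tested with edgeR's quasi-likelihood test, p-values adjusted over all genes after Benjamini and Hochberg. With etoposide in WT cells 8 rose and 1 fell in the DAXX series (median log2 fold change 0.50, beside 0.03 over all genes). In the ATRX series 9 rose and 2 fell (0.87, beside 0.07). Of all genes, 30.1% rose and 30.2% fell in the DAXX series, and 31.7% and 29.8% in the ATRX series. Here and in the lists below, genes at or near 0 in controls passed the filter on low counts through treated libraries. This favours a rise, so the rises and p-values of such genes are a description. FLG, which encodes filaggrin, a filament-bundling protein of the upper epidermis, had 0 counts in all 12 controls. It stood at 1.63, 2.27 and 3.11 CPM in DAXX-WT with etoposide (at least 21.1-fold) and 7.94, 6.58 and 6.11 CPM in ATRX-WT (at least 84.0-fold).

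SPRR2D, a small proline-rich envelope precursor, rose by 5.07 (SE 0.42, edgeR adjusted p = 2.88e-09) on the log2 scale in DAXX-WT and by 6.08 (SE 0.28, edgeR adjusted p = 9.94e-12) in ATRX-WT. PRR9, a proline-rich gene of the same complex, rose by 2.30 (SE 0.34, edgeR adjusted p = 9.29e-06) and 5.61 (SE 0.21, edgeR adjusted p = 6.23e-13), and IVL, which encodes involucrin, by 3.06 (SE 0.69, edgeR adjusted p = 0.000794) and 4.30 (SE 0.61, edgeR adjusted p = 9.83e-06). KPRP, 13083 bases from LCE1F, and IVL, 80448 bases from LCE1A, were the nearest tested genes of this list on either side. KPRP, a keratinocyte proline-rich protein, was at 0.18 (SE 0.47, edgeR adjusted p = 0.760) with etoposide in DAXX-WT and 1.00 (SE 0.42, edgeR adjusted p = 0.0495) in ATRX-WT. In DAXX_KO KPRP held 0 counts against 38 in DAXX-WT in controls. With etoposide it held 4 against 38 there (ratio 0.0932, counting interval 0.0242 to 0.259). ATRX_KO held 13 KPRP counts against 29 in controls and 36 against 50 with etoposide (edgeR adjusted p = 0.0889 and 0.132).

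Against WT with etoposide, members of this list lay on both sides. In DAXX_KO 4 of 14 were higher and 5 lower (27.8% and 25.3% of all genes), and in ATRX_KO 3 of 15 were higher and 6 lower (23.0% and 22.9%). Among these, IVL (19 counts against 46) and KPRP (4 against 38) in DAXX_KO had few counts in the knockout. RPTN in ATRX_KO (45 against 5) had few in WT. The filter on low counts favoured such differences, as for FLG below, so these calls are a description. FLG was lower in both, on 2 counts against 55 in the DAXX series (ratio 0.0322, counting interval 0.00381 to 0.122). It stood at 0, 0.207 and 0 CPM in DAXX_KO and 1.42, 1.59 and 1.73 CPM in ATRX_KO (edgeR adjusted p = 5.59e-05), with no knockout library in the WT range. In the DAXX series FLG passed the filter only through DAXX-WT with etoposide, so no p is given there. SPRR2D was higher in ATRX_KO, with 64.7, 52.7 and 54.7 CPM against 12.3, 12.4 and 10.8 CPM in ATRX-WT (log2 fold change 2.27, SE 0.13, edgeR adjusted p = 6.98e-10). It was already higher in the ATRX_KO controls, with 73 counts against 6 (log2 fold change 3.54, SE 0.38, edgeR adjusted p = 1.19e-06). Its etoposide ratio was 28.1 in ATRX_KO and 72.1 in ATRX-WT (interaction -1.26, SE 0.46, edgeR adjusted p = 0.0717). In DAXX_KO SPRR2D was at 0.38 (SE 0.24, edgeR adjusted p = 0.187). PRR9 was lower in DAXX_KO (-0.85, SE 0.30, edgeR adjusted p = 0.0230) and higher in ATRX_KO (0.67, SE 0.12, edgeR adjusted p = 0.000193). In controls PRR9 held 2 counts in DAXX_KO against 44 in DAXX-WT, and 156 in ATRX_KO against 16 in ATRX-WT. The etoposide ratio of PRR9 was 52.0 in DAXX_KO (counting interval 14.1 to 434) and 4.88 in DAXX-WT. In the ATRX series it was 8.03 in ATRX_KO and 49.9 in ATRX-WT.

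**Figure D4:**
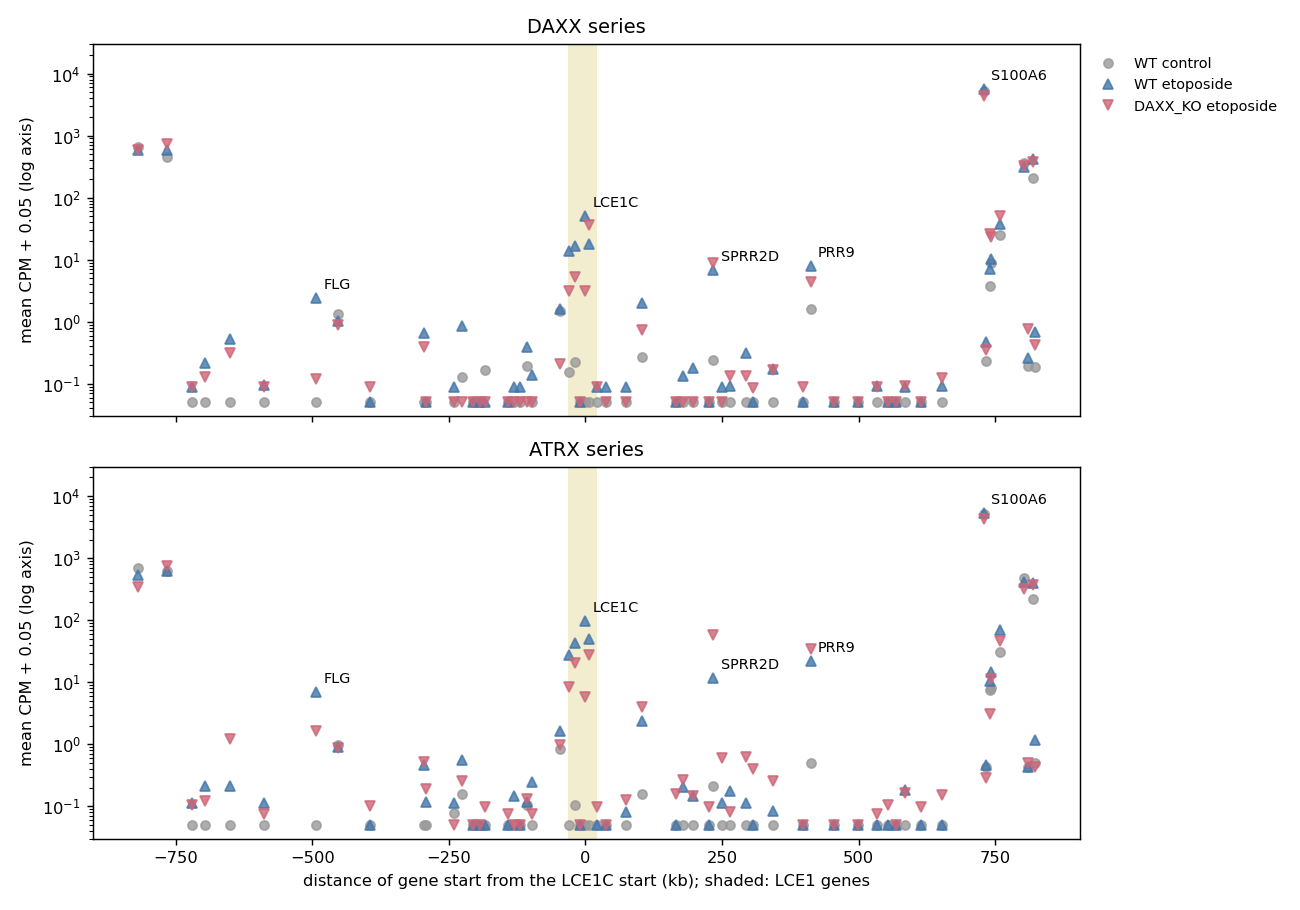
Mean level (CPM plus 0.05, log axis) of 60 genes of the epidermal differentiation complex by the distance of their midpoint from the LCE1C start in kb, for WT controls (grey circles), WT with etoposide (blue triangles) and knockouts with etoposide (red triangles) of each series. The axis label names the gene start, but midpoints are drawn. In WT cells with etoposide the 4 expressed LCE1 genes (shaded) stand above PRR9, SPRR2D and FLG, and S100A6 at the right end is far above them in controls and treated cells.

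Genes of cornified envelope assembly were given by a list of 20, of which 6 (DAXX series) and 10 (ATRX series) were tested. With etoposide 4 rose and 1 fell in DAXX-WT (30.1% and 30.2% of all genes), and 7 rose and none fell in ATRX-WT (31.7% and 29.8%). For genes at or near 0 in controls the filter favoured such a rise. Fewer were called when 10 counts were required in every library. ABCA12, the lipid transporter of lamellar granules, stood at 7.66, 5.62 and 6.62 CPM in DAXX-WT with etoposide, with no count in its controls (at least 60.1-fold). In ATRX-WT it stood at 18.3, 18.2 and 18.8 CPM, with 1 count in the 3 controls. ALOXE3, a lipoxygenase of the skin barrier, rose by 4.14 (SE 0.27, edgeR adjusted p = 1.11e-10) and 5.91 (SE 0.17, edgeR adjusted p = 4.09e-14) on the log2 scale. Against WT with etoposide, 5 were higher and none lower in DAXX_KO (27.8% and 25.3% of all genes), while 1 was higher and 5 lower in ATRX_KO (23.0% and 22.9%). ABCA12 and ALOXE3 were among those with opposite signs, like LCE1B: ABCA12 was at 0.98 (SE 0.22, edgeR adjusted p = 0.00152) in DAXX_KO and -1.21 (SE 0.22, edgeR adjusted p = 0.000282) in ATRX_KO. ALOXE3 was at 1.30 (SE 0.16, edgeR adjusted p = 1.16e-06) and -0.40 (SE 0.10, edgeR adjusted p = 0.00518). TGM2, a transglutaminase found in many tissues, was higher in both knockouts, and TGM1, TGM3 and TGM5, the epidermal enzymes, held at most 21 counts in any library and were not tested. Treated against control, TGM5 held 13 counts against 1 in DAXX-WT (counting interval of the ratio 2.24 to 635) and 33 against 1 in ATRX-WT (6.44 to 1566). TGM1 held 8 against 3 (0.735 to 17.9) and 14 against 4 (1.28 to 17.0), and TGM3 5 and 7 against 0.

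Of 20 keratinocyte genes 7 (DAXX series) and 8 (ATRX series) were tested; 2 rose and 2 fell with etoposide in DAXX-WT (30.1% and 30.2% of all genes), and 3 rose and 2 fell in ATRX-WT (31.7% and 29.8%). SFN, which encodes the cell cycle regulator 14-3-3 sigma, rose in both (3.81, SE 0.48, edgeR adjusted p = 9.84e-07, and 2.89, SE 0.40, edgeR adjusted p = 7.57e-06), and KRT15 fell in both. The summed level of the list was 225 to 237 CPM in DAXX-WT controls and 218 to 231 CPM with etoposide, and 197 to 231 CPM and 238 to 252 CPM in ATRX-WT. In DAXX_KO it was 171 to 186 CPM in controls and 200.5 to 238 CPM with etoposide, and in ATRX_KO 161 to 215 CPM and 196 to 256 CPM. KRT10 made up most of it. In the knockouts against WT with etoposide, 1 was higher and 1 lower in DAXX_KO (27.8% and 25.3% of all genes) and none higher and 2 lower in ATRX_KO (23.0% and 22.9%). Beside the same shares of all genes, of the glioma and mesenchymal markers none rose and 5 of 8 fell with etoposide in DAXX-WT, and 2 rose and 5 of 9 fell in ATRX-WT. Against WT with etoposide, 4 were higher and 1 lower in DAXX_KO, and 1 higher and 4 lower in ATRX_KO. Their summed level was 6950 to 7599 CPM in DAXX-WT controls and 3217 to 3533 CPM with etoposide, and the part of such shifts in the LCE1 values was not tested.

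MDM2, CDKN1A and PRMT5 were higher with etoposide in WT cells of both series. MDM2, which encodes a ubiquitin ligase, rose by 4.07 (SE 0.08, edgeR adjusted p = 5.37e-18) and 4.20 (SE 0.09, edgeR adjusted p = 1.48e-15) on the log2 scale. CDKN1A, the gene of the cell cycle inhibitor p21, rose by 5.25 (SE 0.07, edgeR adjusted p = 5.98e-21) and 5.25 (SE 0.08, edgeR adjusted p = 1.66e-17). Against WT with etoposide, MDM2 fell by 0.69 (SE 0.07, edgeR adjusted p = 1.58e-07) in DAXX_KO and by 0.68 (SE 0.08, edgeR adjusted p = 1.43e-06) in ATRX_KO. PRMT5 was lower by 0.86 (SE 0.08, edgeR adjusted p = 3.44e-08) and 0.55 (SE 0.08, edgeR adjusted p = 2.61e-05). It was already lower in the knockout controls, at -0.78 (SE 0.08, edgeR adjusted p = 2.14e-07) in DAXX_KO and -0.28 (SE 0.08, edgeR adjusted p = 0.00960) in ATRX_KO. The PRMT5 interaction was not called (-0.08, edgeR adjusted p = 0.733, and -0.27, edgeR adjusted p = 0.123). CDKN1A was at 0.02 (SE 0.06, edgeR adjusted p = 0.80) in DAXX_KO and -1.13 (SE 0.07, edgeR adjusted p = 9.78e-10) in ATRX_KO. Over all lists, the etoposide response itself differed between knockout and WT cells (interaction) for 10 of 43 genes in DAXX_KO, 7 with a higher and 3 with a lower response, where 8.18% and 5.90% of all genes did. In ATRX_KO it was 9 of 50, 5 higher and 4 lower, beside 8.36% and 7.64%.

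By Pearson r, MDM2 was also the gene whose pattern was most like the summed LCE1 level. Over 24 libraries, among 16670 genes, the highest Pearson r of log2 CPM with the summed LCE1 level was that of MDM2 (0.994), followed by SESN2 (0.991), SNHG32 (0.985), CES2 (0.985), DDIT3 (0.984), ZMAT3 (0.983), BLOC1S2 (0.983), UNC5B-AS1 (0.983) and RIMS4 (0.983). The libraries fall into controls and treated cells, a split that sets most of each r, and no p is given. By Spearman's rho RIMS4 (0.967) stood above MDM2 (0.947). Within the treated libraries MDM2 followed the order of the groups less steeply than LCE1. It stood at 860 to 870 CPM in DAXX-WT and 505 to 566 CPM in DAXX_KO, and at 950 to 1003 CPM in ATRX-WT and 566 to 626 CPM in ATRX_KO.

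**Figure D5:**
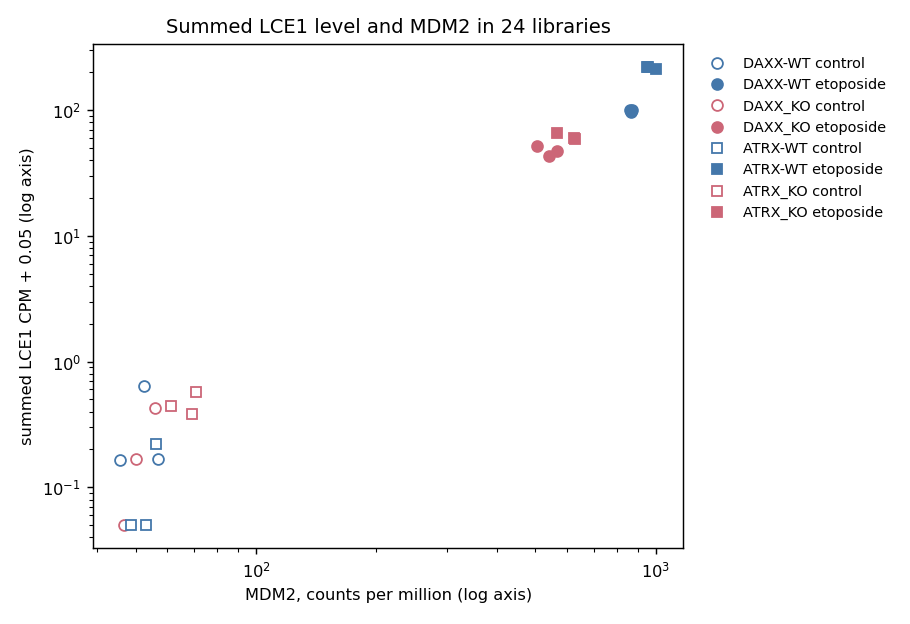
Summed LCE1 level (CPM plus 0.05) against MDM2 (CPM), both on log axes, in 24 libraries; circles are the DAXX series, squares the ATRX series, filled symbols etoposide, open symbols controls, blue WT and red knockout. Treated libraries sit at MDM2 levels of 505 to 1003 CPM and, among them, knockouts lie below and to the left of WT cells.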

How the data were processed

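The authors made polyadenylated RNA libraries with the QuantSeq 3′ kit, sequenced 75 bases from one end, used STAR for alignment and RSEM for gene counts (version 1.2.3 in the submitters' processing notes; the methods of the study name another) on hg19; the study itself used DESeq2. The deposited table holds whole counts per Ensembl gene (57736 genes, 24 libraries). Symbols were matched for 43484 genes, which hold 98.3% of the counts.

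Genes were filtered with filterByExpr (minimum count 10, minimum total 15), keeping 15247 genes (DAXX series) and 16371 genes (ATRX series). Each series of 12 libraries was fitted with edgeR 4.0.16 (TMM, quasi-likelihood test, Benjamini-Hochberg adjustment, FDR 0.05) in R 4.3.3, without a replicate block. The SE given with a log2 fold change was its absolute value divided by the square root of the test's F statistic. Differences between series came from 1 model of all 24 libraries. The summed LCE1 count was fitted as an added row. Log2 CPM used a prior count of 2, and the fit was tested on simulated data. DESeq2 1.42.0, other scalings and filters, a replicate block and leaving out each library were alternatives. Count ratios have exact 95% binomial intervals, and against a group at 0 a floor of 3 counts over the group; both cover counting error only.

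The LCE1 genes, the gene lists and the tests were chosen with earlier results of these data known. Named beside the 6 members are DAXX and ATRX, and at most 4 genes per list and contrast with the largest changes past the threshold. The contrasts were the WT etoposide response and the interaction. Also named are list members at or near 0, the 10 genes most like LCE1 by Pearson r, and the nearest tested genes of the complex list. TGM1, TGM3, TGM5, GRHL1 and RPTN were named after their values were seen. Gene positions and 3′ windows came from GENCODE v44 lifted to GRCh37, which may differ from the annotation the authors counted on. Replicate numbers did not pair the libraries. Results on 1 item of these lists are not reported here.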

Additional observations from a re-analysis of the deposited data

Results flagged for a closer look

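LCE1B moved in opposite directions in the knockouts with etoposide: every DAXX_KO library was above every DAXX-WT library, and every ATRX_KO library below every ATRX-WT library. The knockout effects differed by 1.85 (SE 0.17) on the log2 scale. Because LCE1B was chosen with these values known, the difference carries no test.

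In 19 of 93 cases among the list genes the response to etoposide differed between knockout and WT cells, by the interaction term of edgeR's quasi-likelihood test, adjusted over all genes after Benjamini and Hochberg. These were 10 of 43 in the DAXX series and 9 of 50 in the ATRX series. Of all genes, 8.18% responded more and 5.90% less in DAXX_KO, and 8.36% and 7.64% in ATRX_KO. The number of cases itself is therefore not read as a result. MDM2 responded less in both knockouts, with an interaction of -0.67 (SE 0.11, adjusted p = 0.000459) for DAXX_KO and -1.03 (SE 0.11, adjusted p = 1.92e-05) for ATRX_KO. CDKN1A gave -0.47 (SE 0.08, adjusted p = 0.000865) and -1.55 (SE 0.09, adjusted p = 7.48e-08). PRR9 gave 3.17 (SE 0.86, adjusted p = 0.0169) for DAXX_KO and -2.60 (SE 0.29, adjusted p = 2.41e-05) for ATRX_KO; the first rests on 2 counts in the DAXX_KO controls and is not called without DAXX-WT control replicate 1 (2.32) or without DAXX_KO control replicate 1 (2.66). ALOXE3 gave -2.42 (SE 0.26, adjusted p = 1.75e-05) and S100A10, an annexin-binding S100 protein, 0.52 (SE 0.14, adjusted p = 0.0193) in the ATRX series. TGM2 gave 0.52 (SE 0.12, adjusted p = 0.00454) and WDR77, the partner of PRMT5, 0.49 (SE 0.14, adjusted p = 0.0205) in the DAXX series. Of the keratinocyte list, KRT15 gave 0.67 (SE 0.20, adjusted p = 0.0350) in DAXX_KO and 1.06 (SE 0.20, adjusted p = 0.00213) in ATRX_KO, and KRT10 gave 0.35 (SE 0.10, adjusted p = 0.0305) in DAXX_KO. Of the glioma and mesenchymal list, NES gave 0.96 (SE 0.11, adjusted p = 9.47e-06), CD44 0.39 (SE 0.08, adjusted p = 0.00209) and FN1 -0.43 (SE 0.10, adjusted p = 0.00622) in DAXX_KO. In ATRX_KO NES gave 0.78 (SE 0.20, adjusted p = 0.0144), CD44 0.57 (SE 0.09, adjusted p = 0.000756) and VIM 0.57 (SE 0.16, adjusted p = 0.0250). The calls of KRT15 and KRT10 in DAXX_KO and of VIM are lost without single libraries: KRT15 without DAXX-WT control replicate 2 or 3, any DAXX-WT etoposide replicate, DAXX_KO control replicate 1 or 3 or DAXX_KO etoposide replicate 2 (0.54 to 0.67); KRT10 without DAXX-WT control replicate 1, DAXX-WT etoposide replicate 2 or 3, DAXX_KO control replicate 1 or 2 or DAXX_KO etoposide replicate 2 (0.28 to 0.34); and VIM without ATRX-WT control replicate 1, ATRX-WT etoposide replicate 2 or 3, ATRX_KO control replicate 1 or 2 or ATRX_KO etoposide replicate 2 (0.48 to 0.57).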

How the results depend on the processing

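For the 4 expressed LCE1 genes and their sum, knockout against WT with etoposide kept its direction in both series under every alternative that gave a value (with 10 counts required in every library none did). It moved by more than the replicate spread in 3 values, all with scaling by library totals alone, among them the sum in the ATRX series (-1.72); that scaling moved the median of all genes by 0.08 (DAXX series) and 0.10 (ATRX series). Leaving out single libraries gave -1.12 to -0.99 and -1.87 to -1.79 for the sum, and the replicate block -1.06 and -1.82. The log2 ratio of summed counts, treated against control, ranged without single libraries from 8.02 to 9.72 in DAXX-WT (8.39 with all; 9.72 without control replicate 1, which holds 6 of 8 control counts), 7.60 to 9.56 in DAXX_KO, 10.81 to 11.97 in ATRX-WT and 7.08 to 7.40 in ATRX_KO.

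With 10 counts required in every library fewer list genes were tested. The complex list then gave 5 calls with etoposide in DAXX-WT (9 otherwise), 6 in ATRX-WT (11), 5 in DAXX_KO against WT (9) and 5 in ATRX_KO (9). The envelope assembly list gave 2 (5), 0 (7), 2 (5) and 2 (6), and the keratinocyte list 2 (4), 2 (5), 1 (2) and 1 (2). Without a filter the envelope list gave 12 calls in DAXX-WT and the keratinocyte list 8 in ATRX-WT, and in the model of 24 libraries the envelope list gave 8 in DAXX-WT; the cause was not tested. Without single libraries the envelope list gave 3 to 5 calls in DAXX_KO against WT, with 3 without DAXX-WT or DAXX_KO etoposide replicate 1, and the keratinocyte list 3 to 6 in ATRX-WT, with 3 without control replicate 1 or 2 or etoposide replicate 2 or 3. The replicate block changed no list count by over 1.5 times and ended 4 of 59 calls of named list genes; same-numbered libraries correlated at -0.216 to 0.0487 and are not taken as pairs.

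Shared 75-base windows of LCE1B were 0% over the last 300 bases and 2.92% over the last 1000, of LCE1C 0% over the last 300, and of LCE1A 3.27% over the last 1000. Of the 10 genes most like LCE1, 2 were among the 10 by Spearman correlation and 4 by 8 group means. With library totals alone WDR77 (0.39), KRT15 (0.56) and KRT10 (0.24) are not called in the DAXX series. S100A10 is not called without ATRX-WT etoposide replicate 3 (0.50), nor TGM2 (0.54) and KRT10 (0.36) in the model of 24 libraries, nor KRT15 in the DAXX series with DESeq2 (0.68) or no filter (0.67).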
